A study of Bos taurus with 12 samples.

Results

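The 10 genes described here are ligands of the transforming growth factor beta (TGF-beta) branch and genes that respond to it: TGFB1, TGFB2, TGFB3, INHBA, LTBP1, BAMBI, PMEPA1, SMAD7, SKIL and TGFBI. They were taken by name as rows of the deposited count table, 10 of its 19285 entries. All 10 had an entry and all 10 passed the filter on low counts. Their RNA was followed in bovine embryonic stem cells of the cell line F7, genotype WT, sequenced as 12 poly-A libraries in 4 groups of 3. The groups carry the names MC (treatment label NC), 1/7MC, 1/7MC+Pyr and, last, 1/7MC+Pyr+FGF. The series title links them to a thinner feeder layer, added pyruvate (Pyr) and a recombinant human basic fibroblast growth factor (FGF), while the meaning of MC is not spelled out and no dose or time is given. All 12 libraries share line and genotype. The labels do not say whether replicates were separate cultures, so a p-value here speaks only of the variation among these libraries, which may be technical.

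TGF-beta ligands are secreted in a latent complex with binding proteins that anchor them in the matrix, and integrins help to release them. The free ligand, like the related activins, binds a pair of receptor kinases that activate SMAD2 and SMAD3, which join SMAD4 and enter the nucleus. Among the genes they switch on are inhibitors of the pathway itself, which form a negative feedback. In epiblast-type stem cells the activin arm is known for supporting the undifferentiated state, and in fibroblasts the pathway is known for raising matrix and contractile genes.

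Total counts lay between 27373759 and 44440972 per library. Gene models differed within MC, where replicates 2 and 3 stood apart from the remaining 10 libraries of the study: of 61 Entrez identifiers held by more than 1 entry, 53 carried differing counts in those 2 libraries and 0 in each of the other 10. Counts of calls against MC are therefore given also against MC replicate 1 alone, which leaves MC without a replicate and takes its spread from the other groups. The stem cell markers POU5F1 (671 to 1390 CPM over the 9 libraries outside MC, 1073 to 1120 in MC) and NANOG (34.1 to 113 CPM over all groups) were present in every group, whereas SOX2 and TDGF1 were not analysed here. Summed over 15 fibroblast and feeder markers, none of them at 0 throughout a group, MC held 4573 to 4967 CPM, 1/7MC 15600 to 21730, 1/7MC+Pyr 18000 to 27980 and 1/7MC+Pyr+FGF 11610 to 17380. Outside MC the sum was higher, although the series title speaks of a thinner feeder layer. The sum is not read here as an amount of feeder cells, as neither that amount nor the cellular source of the sum was tested. The libraries were made from bulk RNA, so for every gene below more cells of a type and more RNA per cell cannot be told apart.

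In 1/7MC, all 10 genes were higher than in MC, from 1.49-fold for SMAD7 to 27.5-fold for BAMBI. Of all genes tested, 23.7% rose and 21.3% fell there. Adding pyruvate left 8 of the 10 without a call, lowered BAMBI 5.96-fold and raised TGFBI 1.98-fold. With FGF on top of pyruvate, PMEPA1, TGFB3, TGFBI, TGFB1 and TGFB2 were lower, by 2.29-fold to 1.67-fold, and BAMBI was 2.1-fold higher; of the 12 fits that left out 1 library, 6 ended the call of TGFB1, 6 that of TGFB2 and 4 that of TGFBI. With FGF, 0.639% of all genes tested rose and 2.12% fell. BAMBI and TGFBI thus moved in opposite directions at both added steps. Those steps share the 1/7MC+Pyr libraries, so the reversal is not a separate observation at each. Calls are from the edgeR quasi-likelihood F test with Benjamini-Hochberg adjustment over all 13920 genes tested and an adjusted p under 0.05. Fold changes below are log2 values, first group over second, ± SE with n = 3 libraries per group, and levels are CPM, the counts scaled to the size of each library.

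**Figure D1:**
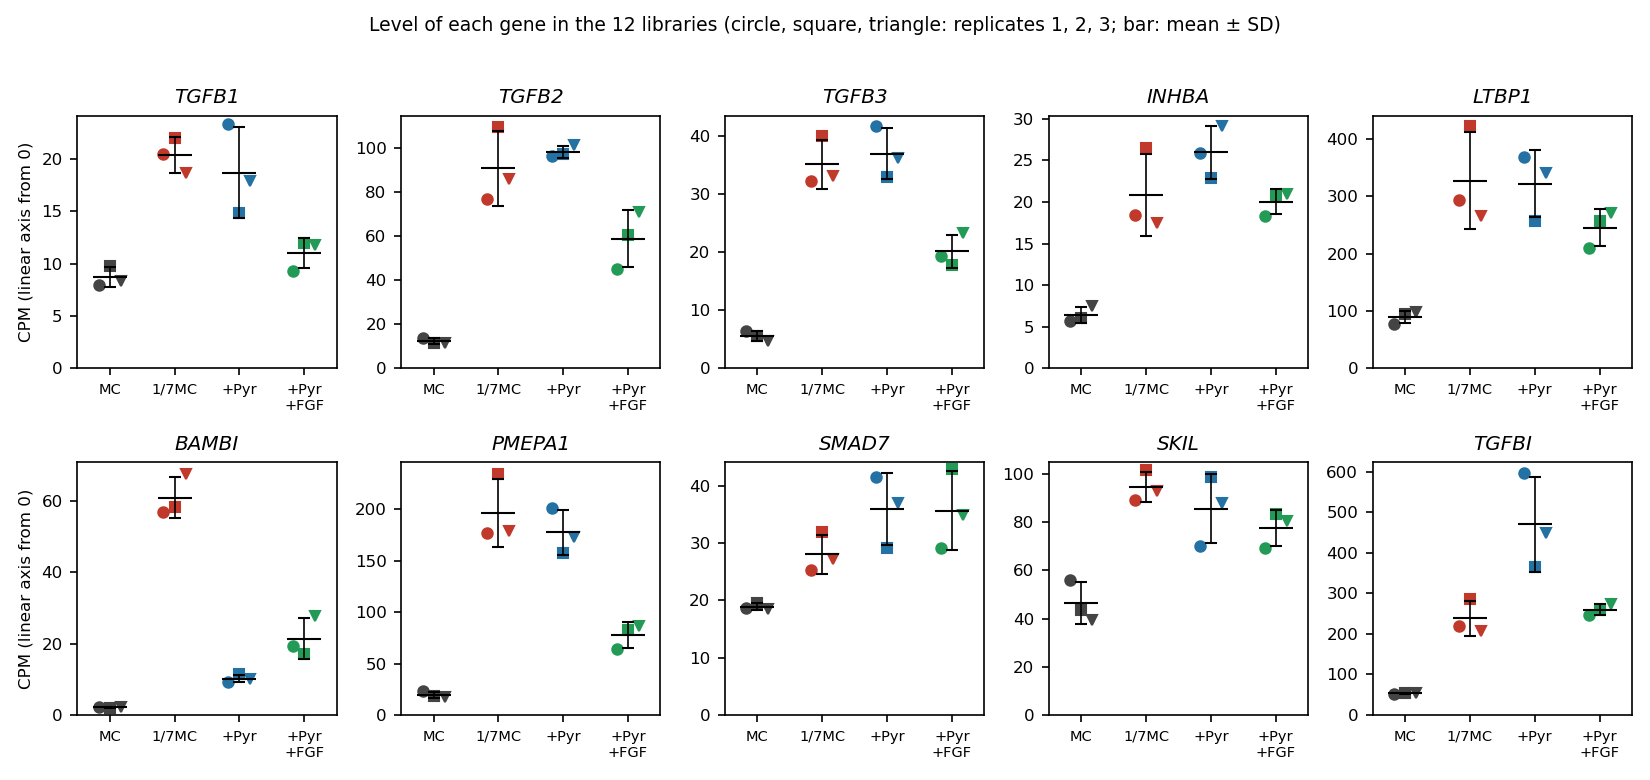
Level of each of the 10 genes in CPM on linear axes from 0, with 1 point per library (circle, square and triangle for replicates 1, 2 and 3) and bars for the mean ± SD of a group. For every gene the 3 MC libraries lie below all 1/7MC libraries, and BAMBI is the gene whose 1/7MC+Pyr libraries (9.22 to 11.4 CPM) lie far below its 1/7MC libraries (56.9 to 67.6 CPM). The share of all genes tested whose libraries separate in this way was not counted.

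The 3 genes of the ligands TGF-beta 1, 2 and 3 shared a course: low in MC, high in 1/7MC and 1/7MC+Pyr, and in between with FGF. TGFB1 stood at 8.01, 9.77 and 8.35 CPM in MC replicates 1 to 3, at 20.5, 22.04 and 18.6 in 1/7MC, at 23.4, 14.9 and 17.9 with pyruvate and at 9.32, 11.98 and 11.8 with FGF added. Its MC and FGF libraries overlapped, and both lay below every library of the other groups. TGFB1 rose by 1.23 ± 0.17 in 1/7MC (adjusted p = 9.05e-05) and fell by 0.77 ± 0.17 with FGF against 1/7MC+Pyr (adjusted p = 0.0315), while its level with FGF was not called against MC (0.34 ± 0.17, adjusted p = 0.142). TGFB1 was the only one of the 10 without a call in that last comparison.

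TGFB2 had the steepest rise of the 3 ligand genes. Its level was 13.8, 11.7 and 11.3 CPM in MC, 76.5, 109.5 and 85.8 in 1/7MC, 96.2, 97.0 and 101.1 with pyruvate and 45.2, 60.2 and 70.8 with FGF. Every library with FGF lay above MC and below the other groups. TGFB2 rose by 2.89 ± 0.18 in 1/7MC (adjusted p = 1.42e-07), did not pass the test on adding pyruvate (0.11 ± 0.16, adjusted p = 0.691) and fell by 0.74 ± 0.16 with FGF (adjusted p = 0.0329). Against 1/7MC the level of TGFB2 with FGF was lower by 0.63 ± 0.16 (adjusted p = 0.0131), a call that was lost without 1/7MC replicate 2, at -0.47.

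TGFB3, the least abundant of these ligands per length, followed TGFB2 closely. It read 6.36, 5.62 and 4.68 CPM in MC, 32.2, 39.9 and 33.2 in 1/7MC, 41.7, 33.0 and 36.3 with pyruvate and 19.4, 17.8 and 23.3 with FGF, so that the FGF libraries again lay between MC and the other groups without overlap. TGFB3 rose by 2.66 ± 0.16 in 1/7MC (adjusted p = 1.11e-07), gave 0.07 ± 0.14 on adding pyruvate (adjusted p = 0.783) and fell by 0.87 ± 0.15 with FGF (adjusted p = 0.00862).

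Per kilobase of gene length, the mix of the 3 ligand transcripts differed between MC and the other groups. In MC, TGFB1 made up 60.0% ± 4.44 (SD, n = 3) of their summed CPM per kilobase, TGFB2 23.9% ± 2.65 and TGFB3 16.2% ± 2.01. MC replicate 1, which shares gene models with the other groups, had 54.9% TGFB1, 26.6% TGFB2 and 18.4% TGFB3. MC replicates 2 and 3 had 63.3% and 61.8% TGFB1. In 1/7MC the shares were 33.7% ± 2.75 for TGFB1, 41.9% ± 2.83 for TGFB2 and 24.4% ± 0.244 for TGFB3, so TGFB2 took the first place. TGFB1 held 29.9% ± 4.0 in 1/7MC+Pyr and 30.6% ± 2.28 with FGF, with ranges that overlapped that of 1/7MC, and its MC range (54.9% to 63.3%) did not meet that of any other group (26.5% to 36.8%). The summed level itself was 10.6 ± 0.703 CPM per kilobase in MC, 44.2 ± 5.70 in 1/7MC, 45.1 ± 4.34 with pyruvate and 26.3 ± 4.13 with FGF (SD, n = 3). No test was run on these shares, which were set up after the levels were known.

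**Figure D2:**
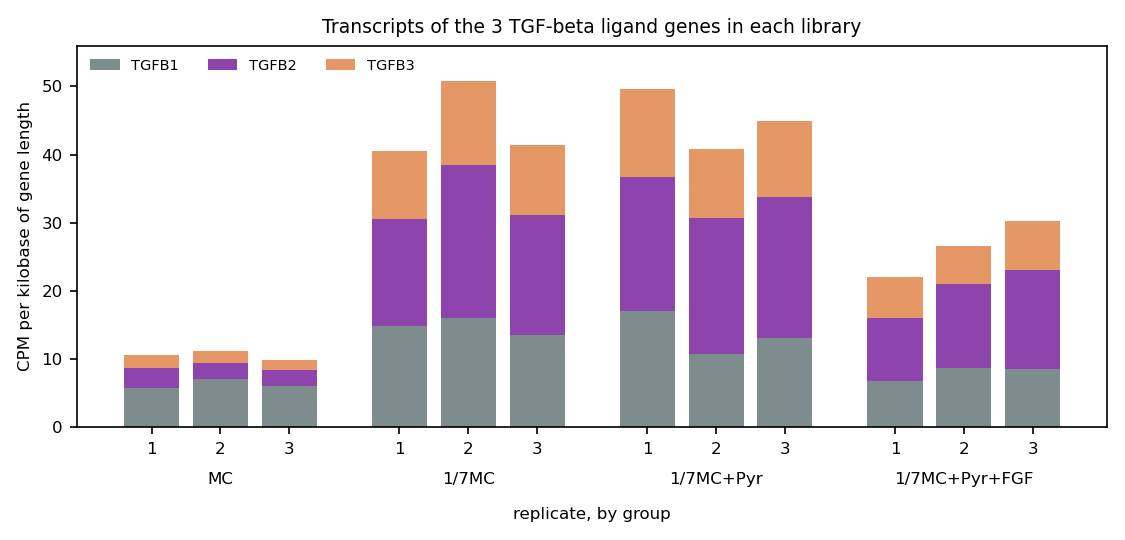
Summed transcripts of TGFB1, TGFB2 and TGFB3 in each library, in CPM per kilobase of gene length from 0, with the 3 replicates of each group side by side and no error bars. Bars reach 9.83 to 11.2 in MC, 40.5 to 50.8 in 1/7MC, 40.9 to 49.6 with pyruvate and 22.01 to 30.3 with FGF, and the share of TGFB1 is largest in MC.

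INHBA encodes the beta A subunit, which pairs with itself to form activin A. Its level was 5.66, 6.0 and 7.5 CPM in MC, 18.4, 26.5 and 17.5 in 1/7MC, 25.9, 22.9 and 29.2 with pyruvate and 18.3, 20.9 and 21.0 with FGF. All MC libraries were lower than the rest, and 1/7MC replicate 2 stood above the other libraries of its group. INHBA rose by 1.71 ± 0.17 in 1/7MC (adjusted p = 8.18e-06). With pyruvate it gave 0.32 ± 0.17 (adjusted p = 0.218), and without 1/7MC replicate 2 the value was 0.53 and passed, which took the count of members higher with pyruvate from 1 to 2. Its drop with FGF, -0.37 ± 0.17, was not called (adjusted p = 0.252) although the 1/7MC+Pyr and FGF libraries did not overlap.

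LTBP1, the binding protein that holds latent TGF-beta in the matrix, was at 77.3, 93.8 and 98.2 CPM in MC. It reached 292.6, 422.9 and 264.7 in 1/7MC, 368.8, 256.1 and 340.8 with pyruvate and 209.3, 256.6 and 270.3 with FGF. MC lay apart, and the other groups overlapped with each other. LTBP1 rose by 1.86 ± 0.19 in 1/7MC (adjusted p = 8.15e-06), gave -0.02 ± 0.18 on adding pyruvate (adjusted p = 0.955) and -0.39 ± 0.18 with FGF (adjusted p = 0.272). Its sign on adding pyruvate turned to 0.21 with replicate 2 of 1/7MC left out and to 0.12 with replicate 2 of 1/7MC+Pyr left out, neither of them called.

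BAMBI, a receptor-like membrane protein without a kinase that dampens TGF-beta signalling, changed most. It had 82, 65 and 61 counts in the MC libraries, or 2.30, 2.07 and 2.26 CPM. In 1/7MC it had 1686 to 2339 counts, or 56.9, 58.4 and 67.6 CPM. BAMBI thus had the fewest counts of the 10 in MC and rose by 4.78 ± 0.19 (adjusted p = 8.07e-09). With pyruvate its level was 9.22, 11.4 and 10.1 CPM, a fall of 2.57 ± 0.17 against 1/7MC (adjusted p = 2.36e-06), and with FGF 19.3, 17.1 and 27.9 CPM, a rise of 1.07 ± 0.17 against 1/7MC+Pyr (adjusted p = 0.00606). The 4 groups of BAMBI did not overlap in any pair, and its order from high to low was 1/7MC, 1/7MC+Pyr+FGF, 1/7MC+Pyr and MC, with every neighbouring pair called. With pyruvate BAMBI was still above MC, by 2.21 ± 0.18 (adjusted p = 3.66e-06).

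PMEPA1 encodes a membrane protein that binds SMAD2 and SMAD3 and is itself a target of the pathway. It stood at 23.1, 18.6 and 17.2 CPM in MC, 176.6, 234.5 and 178.4 in 1/7MC, 201.3, 157.6 and 173.1 with pyruvate and 63.7, 82.3 and 86.8 with FGF. The FGF libraries lay apart from all the others, above MC and below both groups without FGF. PMEPA1 rose by 3.32 ± 0.17 in 1/7MC (adjusted p = 4.13e-08), gave -0.15 ± 0.16 on adding pyruvate (adjusted p = 0.575) and fell by 1.19 ± 0.16 with FGF (adjusted p = 0.00276).

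SMAD7, the inhibitory SMAD that blocks the type I receptor, had the smallest rise. Its values were 18.7, 19.6 and 18.5 CPM in MC, 25.2, 31.9 and 27.1 in 1/7MC, 41.5, 29.1 and 37.0 with pyruvate and 29.1, 42.8 and 34.9 with FGF. The MC libraries lay close together below all others, and the other 3 groups overlapped. SMAD7 rose by 0.57 ± 0.16 in 1/7MC (adjusted p = 0.011), a call lost with MC replicate 1 alone (0.60 ± 0.24) and without 1/7MC replicate 2 (0.46). It was not called on adding pyruvate (0.35 ± 0.16, adjusted p = 0.148) or FGF (-0.01 ± 0.16, adjusted p = 0.979), and against MC it was higher in 1/7MC+Pyr (0.92 ± 0.16) and with FGF (0.91 ± 0.16).

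SKIL encodes SnoN, a nuclear repressor that holds SMAD complexes inactive. It read 56.2, 43.8 and 39.4 CPM in MC, 89.5, 101.7 and 92.8 in 1/7MC, 70.2, 98.7 and 87.9 with pyruvate and 69.4, 83.3 and 80.6 with FGF. Every MC library was lower than every other, and MC replicate 1 was the highest of its group. SKIL rose by 1.03 ± 0.15 in 1/7MC (adjusted p = 0.000141) and by 0.76 ± 0.19 against MC replicate 1 alone. Its rise against MC was 0.88 ± 0.15 in 1/7MC+Pyr (adjusted p = 0.000925) and 0.74 ± 0.15 with FGF (adjusted p = 0.00272), and against MC replicate 1 alone these became 0.62 ± 0.19 and 0.45 ± 0.18 and did not pass.

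TGFBI, a secreted matrix protein named for its induction by TGF-beta, was the most abundant of the 10 per length in every group. It was at 52.2, 53.9 and 53.4 CPM in MC, 220.3, 287.5 and 207.1 in 1/7MC, 596.4, 366.3 and 449.1 with pyruvate and 246.8, 259.1 and 275.0 with FGF. All 1/7MC+Pyr libraries exceeded those of the other groups, and 1/7MC and the FGF group overlapped. TGFBI rose by 2.17 ± 0.17 in 1/7MC (adjusted p = 8.65e-07) and by a further 0.98 ± 0.16 with pyruvate (adjusted p = 0.00127). It fell by 0.85 ± 0.16 with FGF (adjusted p = 0.016), to a level not called against 1/7MC (0.13 ± 0.16, adjusted p = 0.597).

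Set against each other per kilobase of gene length, the 10 genes differed widely in level. TGFBI (20.4 ± 0.333 CPM per kilobase) and LTBP1 (18.4 ± 2.25) led in MC, and INHBA (0.930 ± 0.142) and BAMBI (0.838 ± 0.0454) were last. In 1/7MC the order began with TGFBI (91.2 ± 16.5), LTBP1 (67.0 ± 17.3), PMEPA1 (39.4 ± 6.60) and BAMBI (23.1 ± 2.19), and INHBA (3.03 ± 0.722) was last (SD, n = 3 for each).

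For 1/7MC against MC, all 10 genes rose and 0 fell (0 also at an unadjusted p under 0.05 and by DESeq2), where 23.7% of all genes tested rose and 21.3% fell. The median over the 10 was 2.01, beside 0.00 over all genes tested. The 10 genes and the lists used here were chosen with earlier results of these data known, so such shares are descriptive. Against MC replicate 1 alone 9 of 10 rose, all but SMAD7, against 14.0% of all genes higher and 9.96% lower in that fit of 14361 genes, and BAMBI gave 4.74 ± 0.32, PMEPA1 3.10 ± 0.27, TGFB2 2.73 ± 0.28 and TGFB3 2.48 ± 0.24. All 15 fibroblast and feeder markers rose too, with a median of 2.22; COL1A1 went from 1200 ± 19.4 to 5183 ± 1395 CPM, COL3A1 from 299.6 ± 3.33 to 2527 ± 657, POSTN from 20.3 ± 2.63 to 493.3 ± 93.2 and PDGFRB from 57.3 ± 2.39 to 112.4 ± 23.0 (SD, n = 3). Their part in the rise of the 10 genes was not tested.

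For 1/7MC+Pyr against 1/7MC, TGFBI was the 1 gene that rose and BAMBI the 1 that fell, where 8.08% of all genes rose and 10.1% fell; the median over the 10 was 0.03. Of the 15 fibroblast and feeder markers 2 rose, COL6A3 and LUM, and 6 fell, with a median of -0.14, while the ratio of their summed group means was 0.33 on the log2 scale. Their part in the changes of BAMBI and TGFBI was not tested. The 6 stem cell markers with an entry all rose at this step, after 5 of 6 had fallen in 1/7MC, and summed to 2338 to 2661 CPM before and 3907 to 4175 with pyruvate.

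For 1/7MC+Pyr+FGF against 1/7MC+Pyr, 1 of 10 rose and 5 fell, where 0.639% of all genes rose and 2.12% fell; the median over the 10 was -0.57, beside 0.01 over all genes tested. The 5 were PMEPA1, TGFB3, TGFBI, TGFB1 and TGFB2. Leaving out replicate 1 or 3 of 1/7MC+Pyr, or replicate 1 or 2 of 1/7MC+Pyr+FGF, made the count 2, PMEPA1 and TGFB3, and the same 2 were called with the replicate number as a block. The rise of BAMBI and the falls of PMEPA1 and TGFB3 passed in every one of the 12 fits that left out 1 library. Beside these changes, the fibroblast and feeder sum had a log2 ratio of -0.58, 3 of the 15 markers fell (COL6A3, COL1A2 and POSTN) around a median of -0.33, and their part in the falls was not tested.

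For 1/7MC+Pyr against MC all 10 rose (15.2% of all genes rose, 13.2% fell), and 9 of 10 with MC replicate 1 alone, all but SKIL (6.56% rose). For 1/7MC+Pyr+FGF against MC 9 of 10 rose, all but TGFB1 (17.1% of all genes rose, 15.4% fell), and 8 of 10 with MC replicate 1 alone, all but TGFB1 and SKIL (5.86% rose). None of the 10 fell in either comparison, a count of 0 also at an unadjusted p under 0.05 and by DESeq2. For 1/7MC+Pyr+FGF against 1/7MC 5 of 10 fell (11.9% of all genes rose, 15.7% fell): BAMBI by 1.51 ± 0.16, PMEPA1 by 1.34 ± 0.16, TGFB1 by 0.89 ± 0.17, TGFB3 by 0.80 ± 0.14 and TGFB2 by 0.63 ± 0.16. There 0 rose, with 1 at an unadjusted p under 0.05, SMAD7, and 0 by DESeq2. All 6 comparisons draw on the same 12 libraries, so the last 3 restate the same levels from another base. The first 3 are not separate either, as each step shares a group with the next.

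**Figure D3:**
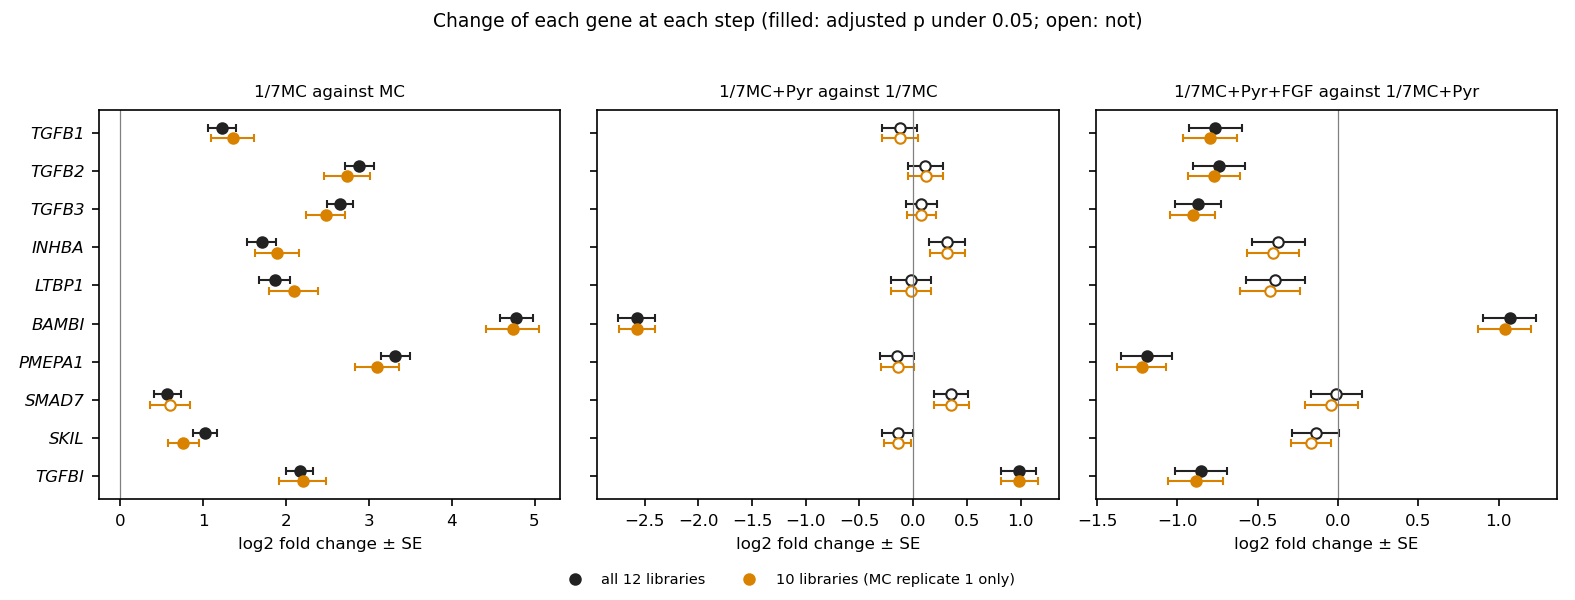
Log2 fold change ± SE of each gene in 3 comparisons, with all 12 libraries (black) or against MC replicate 1 alone (orange); filled points passed an adjusted p under 0.05 and open points did not. All points lie above 0 in the left panel, only BAMBI (-2.57) and TGFBI (0.98) are filled in the middle, and on the right BAMBI (1.07) stands alone above 0 among the filled points.

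The rest of the pathway was read from a list of 58 genes, of which 57 had an entry (TSC22D1 was not analysed here) and 55 were tested; ACVR1C had 0 counts in every library and NODAL reached at most 0.398 CPM. In 1/7MC against MC 31 of 55 (56.4%) rose and 10 (18.2%) fell, with a median of 0.68, beside 23.7% and 21.3% of all genes tested. With MC replicate 1 alone 23 rose and 7 fell of 56 (41.1% and 12.5%, beside 14.0% and 9.96%). In the latency and activation group, which makes, anchors or releases latent ligand, 9 of 10 rose, and 6 of 10 with MC replicate 1 alone. LRRC32, which displays latent TGF-beta on the cell surface, rose by 3.96 ± 0.37, by 3.24 ± 0.43 against MC replicate 1 alone and by 4.63 with that library left out. Its fold rests on a low level in MC, with a mean of 0.591 CPM there and 9.45 in 1/7MC. Of 18 target genes 13 rose and 3 fell (11 and 3 with MC replicate 1 alone); CDKN2B, a cell cycle inhibitor, went from 4.05 ± 2.19 to 81.2 ± 12.5 CPM (4.31 ± 0.31, and 3.64 ± 0.30 against MC replicate 1 alone), CCN2, a matrix signalling protein, rose by 1.32 ± 0.13, and the 3 that fell were IGFBP3, CCN1 and CDKN1A.

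Of 7 receptors and co-receptors 2 rose and 2 fell in the same comparison (28.6% each), beside 23.7% and 21.3% of all genes tested. Of 5 SMADs and partners 1 rose and 3 fell (20.0% and 60.0%). TGFBR2, the type II receptor, rose by 1.52 ± 0.17 and ACVR2A by 0.36 ± 0.12, while the co-receptor TGFBR3 fell by 1.65 ± 0.16 and ACVR2B by 0.49 ± 0.13. TGFBR1, the type I receptor, was not called (0.54 ± 0.24, adjusted p = 0.0848); its MC libraries ranged from 117.7 to 269.6 CPM, and against MC replicate 1 alone the value was -0.09. The co-receptor ENG was not called with all MC libraries (0.83 ± 0.38, adjusted p = 0.0919), which held only 0.756 to 3.26 CPM. Against MC replicate 1 alone the value of ENG was 2.35 ± 0.37, and with MC replicate 2 left out it was 1.25. SMAD2 rose by 0.99 ± 0.21 with all MC libraries and by 0.46 ± 0.15 against MC replicate 1 alone. SMAD3 gave 0.34 (adjusted p = 0.0865). SMAD4 fell by 0.23 ± 0.09 (adjusted p = 0.0466), a call lost in 9 of the 12 fits without 1 library, where it passed without MC replicate 1 and without replicate 1 or 2 of 1/7MC+Pyr. It was also lost against MC replicate 1 alone, as were the calls of ZFYVE9, ACVR2A, GDF11, the inhibitors SMURF2, TGIF2 and NEDD4L, the latency genes ITGB6, ITGB8 and THBS1 and the targets ADAM19 and NOX4. FOXH1, a nuclear partner of the SMADs in stem cells, fell by 0.73 ± 0.10. Of 9 inhibitors 4 rose (44.4%), led by the activin-binding protein FSTL3 (1.60 ± 0.15), and TGIF1 and NEDD4L fell (22.2%). Of 6 other ligands GDF11 and MSTN rose (33.3%), MSTN from a mean of 0.100 to 0.847 CPM.

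With pyruvate, 10 of 55 pathway genes (18.2%) rose and 9 (16.4%) fell around a median of 0.00, beside 8.08% and 10.1% of all genes tested; the count lower was 5 with replicate 3 of 1/7MC left out and 4 with replicate 3 of 1/7MC+Pyr left out. TGFBR2 rose by 0.85 ± 0.16 and TGFBR3 by 1.02 ± 0.16, and ENG gave -0.94 (adjusted p = 0.107), which passed in the fit lacking MC replicates 2 and 3 and in that lacking MC replicate 1. FOXH1 (0.53 ± 0.10) and the inhibitors TGIF1 (0.50 ± 0.08) and NEDD4L rose, each after a fall in 1/7MC. LRRC32 fell by 2.09 ± 0.32, from 9.45 ± 2.71 to 2.23 ± 0.533 CPM, and LTBP4 was the other latency gene that fell. Of the other ligands LEFTY2 (1.49 ± 0.34), an antagonist of NODAL, and GDF3 rose, and MSTN and GDF11 fell, all but GDF11 at means under 4 CPM. The targets IGFBP3 (1.22 ± 0.13), TNC and FN1 rose, and CCN2 (-0.67 ± 0.13), ID1, JUNB, ACTA2 and KLF10 fell. Over the 12 fits without 1 library, the call was lost in 9 for GDF3, 7 for MSTN, 7 for ACTA2, 5 for JUNB, 3 for FN1, 2 for KLF10 and 1 for GDF11. TGFBR1 (0.19), SMAD2 (-0.14), SMAD3 (-0.23) and SMAD4 (0.13) were not called.

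With FGF, 5 of 55 pathway genes (9.09%) fell and 1 (1.82%) rose, with a median of -0.17, beside 2.12% and 0.639% of all genes tested. The 5 were TGFBR2 (-0.90 ± 0.16), CDKN2B (-1.22 ± 0.27), LMCD1 (-0.97 ± 0.13), JUNB (-0.91 ± 0.16) and FOXH1 (-0.44 ± 0.10), and the 1 was CDKN1A (0.33 ± 0.08). The count lower was 3 when replicate 1 or 3 of 1/7MC or replicate 3 of 1/7MC+Pyr was left out, and 1 when replicate 1 of 1/7MC+Pyr or of 1/7MC+Pyr+FGF was. Over the fits without 1 library the call was lost in 9 for FOXH1, 6 for CDKN2B, 2 for TGFBR2 and 2 for JUNB, and in 0 for LMCD1. CDKN1A passed in 3 of the 12 fits without 1 library: those lacking replicate 1 of MC, replicate 2 of 1/7MC or replicate 1 of 1/7MC+Pyr. TGFBR2 went from 41.8 ± 5.66 to 22.4 ± 2.70 CPM. TGFBR1 (0.10), SMAD2 (-0.02), SMAD3 (-0.15), SMAD4 (-0.04) and CCN2 (0.20) were not called. In this list GDF3, LEFTY2, GDF11, LTBP4, NEDD4L, ZFYVE9, TGIF2, SMURF2, ACVR2A, ACVR2B, CCN1, CDKN1A, TNC, FN1, ID1, JUNB, ACTA2, KLF10, LMCD1, ITGB6, ITGB8, THBS1, ADAM19, NOX4 and ENG were named after their values were seen.

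The order of the libraries within a group was set beside the fibroblast and feeder sum. In 1/7MC, replicate 2 was highest for 9 of the 10, all but BAMBI, and had the highest marker sum of its group (21732 CPM), whereas replicate 1 was lowest for 6 and replicate 3, with the lowest sum (15603), for 4. With FGF, replicate 1 was lowest for 8 and had the lowest sum (11615), and in 1/7MC+Pyr replicate 2 was lowest for 7 and had the lowest sum (18001). Replicate 1 of 1/7MC+Pyr had the highest sum of its group (27980) and was highest for 6 but lowest for 3. In MC, replicate 1 had the lowest sum (4573) and was highest for 5 and lowest for 4. Replicate 3 had the highest sum of MC (4967) and was highest for 2 and lowest for 5. The order of the libraries was not counted over all genes. The sum leans on its most abundant genes. On group means COL1A1 alone held 1200 of 4832 CPM in MC and 8434 of 22730 with pyruvate. On adding pyruvate the sum gave a log2 ratio of 0.33 but the median marker -0.14. The ratios below, those with pyruvate above all, thus depend on the choice of the sum. Per 1000 CPM of that sum, LTBP1 stood at 18.5 ± 1.47 CPM in MC, 17.9 ± 1.33 in 1/7MC, 14.3 ± 1.09 with pyruvate and 16.4 ± 1.42 with FGF (SD, n = 3). INHBA was similar, at 1.15 to 1.35 on group means. BAMBI was not: it had 0.459 ± 0.0419, 3.47 ± 0.824, 0.471 ± 0.151 and 1.44 ± 0.347 CPM per 1000 in the same order. PMEPA1 had 4.09 ± 0.848, 10.9 ± 0.471, 7.92 ± 0.787 and 5.16 ± 0.281, and TGFB1 had 1.802 ± 0.151, 1.143 ± 0.112, 0.823 ± 0.0139 and 0.735 ± 0.0635. Like TGFB1, SMAD7 (3.92 ± 0.182 in MC, 1.57 ± 0.149 in 1/7MC) and SKIL (9.69 ± 2.30 in MC, 5.32 ± 0.635 in 1/7MC) rose less than the marker sum did. By log2 ratio of group means, 1/7MC against MC, that sum rose by 1.901. TGFB2 (2.888), TGFB3 (2.662) and TGFBI (2.165) rose more, and LTBP1 (1.864) and INHBA (1.705) slightly less. Summed endothelial and blood markers were low, at 16.8 to 59.6 CPM in all libraries, with LYVE1 at 0 counts in all MC libraries. Epithelial markers summed to 2106 to 2610 CPM in MC, 874.5 to 1037 in 1/7MC, 1563 to 1595 with pyruvate and 2026 to 2386 with FGF. All 7 fell in 1/7MC against MC, beside 21.3% of all genes tested. With pyruvate 4 of the 7 rose and 0 fell, beside 8.08% and 10.1%. With FGF against 1/7MC+Pyr 2 rose and 4 fell (median -0.91), beside 0.639% and 2.12%. Against MC, 1 of the 7 was higher with FGF and 5 were lower (median -2.10), beside 17.1% and 15.4%.

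**Figure D4:**
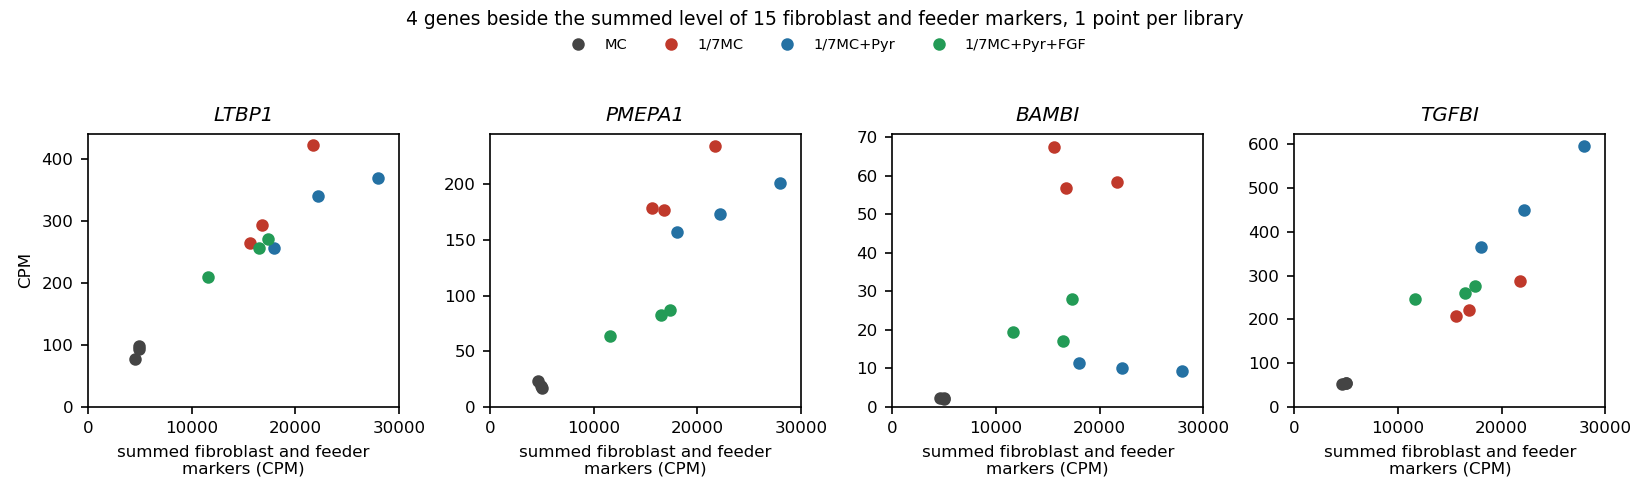
Level of LTBP1, PMEPA1, BAMBI and TGFBI in CPM against the summed level of 15 fibroblast and feeder markers in CPM, linear axes from 0, 1 point per library, coloured by group. LTBP1 rises with the sum over all groups, whereas for BAMBI the 1/7MC+Pyr libraries, with sums of 18001 to 27980 CPM, lie at 9.22 to 11.4 CPM, below every 1/7MC library.

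The profiles of the 10 genes over the libraries were compared by Pearson's r of log2 CPM, over the 10 libraries that share gene models and, in 45 pairs, again over the 9 of them outside MC. The libraries of a group share their condition, so r describes these libraries only. TGFB3 and PMEPA1 were the closest pair over 10 libraries (0.981, and 0.958 over 9), and TGFB1 and PMEPA1 the closest over 9 (0.965, and 0.941 over 10). TGFB2 and TGFB3 gave 0.97 and 0.91. The lowest values were those of BAMBI: with TGFBI its r was 0.31 over 10 libraries and -0.80 over the 9 outside MC, and with SMAD7 0.18 and -0.63. With SKIL, BAMBI gave 0.72 and 0.44. Low values were not particular to BAMBI, as SMAD7 gave 0.32 and -0.39 with SKIL and 0.50 and -0.15 with PMEPA1. With the log2 marker sum, LTBP1 gave 0.97 over 10 libraries and 0.87 over 9, and BAMBI 0.50 and -0.33.

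Among all genes tested outside the 10, the closest profile over the 10 libraries was that of KCNMA1 for TGFB3 (r = 0.996), KCNA6 for PMEPA1 (0.996), TIMP2 for TGFBI (0.994), COL8A1 for INHBA (0.992), ADARB1 for TGFB1 (0.990), COL4A1 for LTBP1 (0.990), AKAP6 for TGFB2 (0.988), TWIST1 for BAMBI (0.988), FADS3 for SMAD7 (0.979) and REEP3 for SKIL (0.975). Each r is the highest found among all genes tested, so a high value comes in part from the search. Spearman's rho for these pairs was 0.915 to 0.976. With 1 library left out the lowest r was 0.937, for TGFB2 and AKAP6. Over all 12 libraries the r of TGFB1 and ADARB1 was 0.873, and the other 9 pairs kept 0.945 or more.

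**Figure D5:**
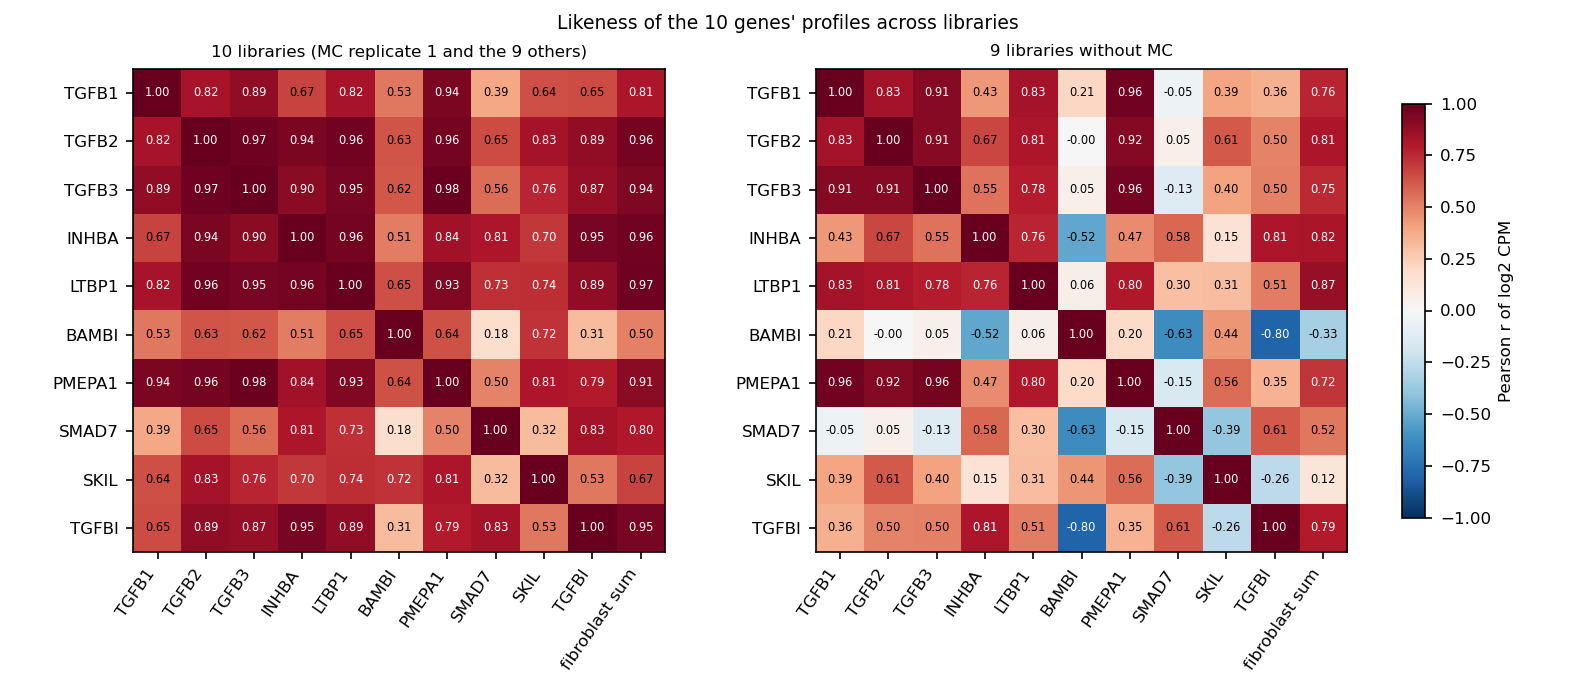
Pearson's r of log2 CPM between the 10 genes and with the log2 sum of fibroblast and feeder markers (last column), over 10 libraries (left) and over the 9 outside MC (right); red is positive and blue negative on a scale from -1 to 1. On the right BAMBI is blue with TGFBI (-0.80), SMAD7 (-0.63), INHBA (-0.52) and the marker sum (-0.33), while TGFB1, TGFB2, TGFB3 and PMEPA1 have values of 0.83 or more with each other there.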

How the data were processed

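Poly-A RNA libraries were made with a NEBNext Ultra kit, per the labels' protocols; no step that marks strand is recorded there, so genes that overlap or have close copies are uncertain. The tools were Subread 2.0 with featureCounts, HISAT2 2.1.0 and fastp 0.19.7 on build bosTau9, per the submitters' processing notes; order, settings and annotation are not given in the sources used here. The authors deposited raw counts per gene with gene lengths. A second deposited table, which is labelled TPM and holds counts over length without a depth correction, was not used.

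Symbols came from Entrez identifiers through a gene table of assembly ARS-UCD2.0 (19195 of 19285 entries), a different build, so neither coordinates nor sequences are given. The 400 entries that share an identifier were left out (1.07% to 1.40% of counts), 18885 staying. CPM use library sizes scaled by trimmed mean factors (TMM). edgeR 4.0.16 (filterByExpr, 1 coefficient per group, quasi-likelihood F test, SE as fold change over the root of F) tested 13920 genes in 1 fit of all 12 libraries, under R 4.3.3; DESeq2 1.42.0, other filters and scalings, a replicate block and leaving out each library were alternatives. Log2 CPM for profiles had a prior count of 2. Figures used Python 3.11.15 and matplotlib 3.10.9. The code was tested on simulated data. Groups and numbers follow the titles. Members and lists were chosen with earlier results of these data known. Of the pathway list, each role's largest called change was named in each of 3 comparisons, and TGFBR1, TGFBR2, SMAD2, SMAD3, SMAD4 and CCN2 always; 1 further gene of that list is not reported here and enters none of its counts.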

Additional observations from a re-analysis of the deposited data

How the results depend on the processing

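Of the 60 tests of a member in a comparison, 42 were calls. All 60 stayed on their side of the threshold under DESeq2, another normalisation (RLE), no or a stricter low-count filter, and with entries of shared identifiers kept; MC replicate 1 alone ended 3 of the 42 calls. Over the fits without 1 library, the members higher in 1/7MC against MC numbered 9 to 10, those higher in 1/7MC+Pyr against 1/7MC 1 to 2, those lower in 1/7MC+Pyr+FGF against 1/7MC+Pyr 2 to 5 and those lower in 1/7MC+Pyr+FGF against 1/7MC 4 to 5. In the pathway list, the count lower with pyruvate ran from 4 to 12, and with FGF against 1/7MC+Pyr the count lower ran from 1 to 7 and the count higher from 0 to 2. That count higher was 0 with MC replicate 1 alone, 0 without the low-count filter and 2 by DESeq2.

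Same-numbered libraries of 2 groups deviated together with r from -0.316 to 0.333, so the numbers are not taken to pair libraries. With the replicate number as a block, 2 members were lower with FGF (the falls of TGFB1, TGFB2 and TGFBI did not pass), the pathway list had 3 lower and 0 higher there, and no other member call was lost.

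Among the genes named here, signs that turned were all of uncalled changes, and the cause was not tested. TGFBR1 in 1/7MC against MC was -0.091 with MC replicate 1 alone. The other turns came from leaving out 1 library, and the values then ran over 0. With pyruvate against 1/7MC they were -0.315 to 0.020 for TGFB1, -0.021 to 0.176 for TGFB3 and -0.150 to 0.207 for LTBP1, and with FGF against 1/7MC -0.161 to 0.160 for INHBA. With FGF against 1/7MC+Pyr they were -0.162 to 0.117 for SMAD7, -0.112 to 0.048 for SMAD2, -0.220 to 0.005 for SMAD3 and -0.123 to 0.019 for SMAD4. Depth limits BAMBI in MC most, at 61 to 82 counts.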
